A study of Mus musculus with 50 samples.

Results

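The 7 milk protein genes Csn1s1, Csn1s2a, Csn2, Csn3, Wap, Lalba and Glycam1 were followed across 50 mammary gland (MG) tumors. They were chosen by name from the 37701 genes of the expression table, as the classic secretory products of the lactating mouse mammary gland. All tumors came from female p53R270H/+WAPCre mice, in which a Cre recombinase under the Wap promoter switches on a heterozygous p53 point mutation in the mammary gland. From the age of 8 weeks the mice were injected subcutaneously every other day with vehicle, insulin, the insulin analogues glargine or X10, or IGF1, and the tumor was taken at a size of 1 cm3, 24 h after the last injection. Each treatment group holds 10 tumors, each from a mouse with its own number, and a tumor is named here by its sample title, such as glargine_78, where Untreated stands for vehicle. The study chose tumors of the epithelial to mesenchymal transition type whose latency lay nearest the median of their group, so these tumors are not a random sample of the model. The samples give no doses, and no normal or lactating gland was part of the data.

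Caseins are the main proteins of milk, and alpha-lactalbumin (Lalba) is the subunit of lactose synthase that makes milk sugar. Their genes are switched on in luminal alveolar cells during pregnancy and lactation, when prolactin acts through its receptor (Prlr) and the transcription factors STAT5A and STAT5B, with ELF5 as the alveolar lineage factor. Insulin and glucocorticoids are needed for full milk protein synthesis in mammary cultures. Whey acidic protein (Wap) appears late in pregnancy and is the gene whose promoter was borrowed for the Cre of this model. Glycam1 encodes a mucin-like glycoprotein with a second known source, the high endothelial venules of lymph nodes, where it carries ligands for L-selectin.

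The 4 caseins lie together on chromosome 5 of the GRCm38 build within 266.5 kb, in the order Csn1s1 (ENSMUSG00000070702, chr5:87666208-87682578, plus strand), Csn2 (ENSMUSG00000063157, chr5:87692624-87699630, minus strand), Csn1s2a (ENSMUSG00000061937, chr5:87774567-87788797, plus strand) and Csn3 (ENSMUSG00000001622, chr5:87925579-87932665, plus strand). Wap (ENSMUSG00000000381) lies at chr11:6635482-6638637 on the minus strand. Lalba (ENSMUSG00000022991, chr15:98480400-98482721) and Glycam1 (ENSMUSG00000022491, chr15:103562759-103565081) are both on the minus strand of chromosome 15. All 7 are annotated as protein coding, and no other annotated gene has an exon that overlaps theirs.

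Sequences near the start of 4 members are shown because STAT5 is the best known shared activator of milk genes. Of these 4, Wap and Glycam1 moved less closely with the other members across tumors. The letters TTCNNNGAA, the form bound by STAT factors, which reads alike on both strands, were searched in the RefSeq promoter windows (GRCm38.p6, 250 bases before to 50 after the start) of the 6 members found there, all but Csn3. They occurred in 4 of them, in Csn1s1 at position -100, in Csn2 at -93, in Glycam1 at -145 and in Csn1s2a at 21 after the start. The windows of Wap and Lalba did not hold these letters, and over all 32851 windows 8.3% held them. The 250 bases before the start of Csn1s1 (chr5:87665958-87666207, plus strand), Wap (chr11:6638650-6638899, minus strand) and Glycam1 (chr15:103565082-103565331, minus strand), and the 29 bases around the match of Csn2 (chr5:87699500-87699528, minus strand), are printed 5′ to 3′ with the match in capitals. Positions are counted from the RefSeq start. For Csn2 this start lies inside the longer GENCODE gene span given above, so its printed bases fall in the first exon of the longest GENCODE transcript and before the start of the other Csn2 transcripts.
Csn1s1: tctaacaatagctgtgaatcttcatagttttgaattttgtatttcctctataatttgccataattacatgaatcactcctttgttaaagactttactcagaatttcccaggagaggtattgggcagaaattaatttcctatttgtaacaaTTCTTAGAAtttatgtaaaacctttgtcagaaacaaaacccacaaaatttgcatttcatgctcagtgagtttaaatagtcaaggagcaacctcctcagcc
Csn2: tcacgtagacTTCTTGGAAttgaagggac
Glycam1: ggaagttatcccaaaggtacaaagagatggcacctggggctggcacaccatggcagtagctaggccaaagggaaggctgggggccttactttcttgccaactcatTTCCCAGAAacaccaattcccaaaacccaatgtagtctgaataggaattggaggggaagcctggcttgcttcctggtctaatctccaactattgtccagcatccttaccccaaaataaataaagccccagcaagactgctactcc
Wap: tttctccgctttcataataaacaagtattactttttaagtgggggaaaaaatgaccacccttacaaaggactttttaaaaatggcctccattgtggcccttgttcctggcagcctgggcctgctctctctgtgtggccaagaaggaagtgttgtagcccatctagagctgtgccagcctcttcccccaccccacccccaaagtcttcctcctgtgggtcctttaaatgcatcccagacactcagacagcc
Other motifs were searched on both strands of the same windows. The ETS letters GGAAGT, a core read by ELF5-type factors, occurred in Wap and Glycam1 (23.8% of all windows), and GGAAAT occurred in Csn1s1 and Glycam1 (17.7%), where in Glycam1 it overlapped the STAT letters. The nuclear factor I core TTGGCA occurred in Lalba and Glycam1 (14.1%), the glucocorticoid receptor core AGAACA in Csn1s2a (19%) and TATAAA in none of the 6 windows (13.6%). A match of letters is a description of the window and not a measured binding site.

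Milk protein expression was present in most tumors but differed by orders of magnitude between them. Levels were read as RPKM, read numbers scaled to the length of the gene and the size of the library, so that genes of different length can be set side by side. Csn3 (kappa-casein, which stabilises the casein micelle) had the highest mean level over all 50 tumors at 27.8 RPKM, followed by Csn1s1 (alpha-S1-casein) at 20.8, Glycam1 at 18.4, Csn2 (beta-casein) at 15.9, Csn1s2a (an alpha-S2-casein) at 8.49, Lalba at 2.42 and Wap at 0.678. These means were carried by few tumors. The 5 highest tumors held 59.2% of the summed Csn3 level, 62.1% for Csn1s1, 73.2% for Csn2, 82.7% for Csn1s2a, 85.5% for Wap and 97.6% for Glycam1.

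The library size recovered from the steps of the RPKM values ranged from 26.6 to 51.9 M reads per tumor, with group medians from 35.4 M reads in X10 to 43.9 M reads in vehicle tumors. Csn3 was read in every tumor, with 24 to 21229 reads. Csn1s1 and Lalba were also above 0 in all 50 tumors, whereas 14 tumors had at most 3 reads of Csn1s2a, 15 of Csn2, 22 of Glycam1 and 34 of Wap. For Wap, 3 reads corresponded to 0.105 to 0.205 RPKM depending on the tumor, so that differences below this level were not detectable at this depth. The sequence sample ids of the labels follow the treatment groups, and the labels do not say what these ids mark. Anything tied to their order cannot be told apart from the treatment.

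**Figure D1:**
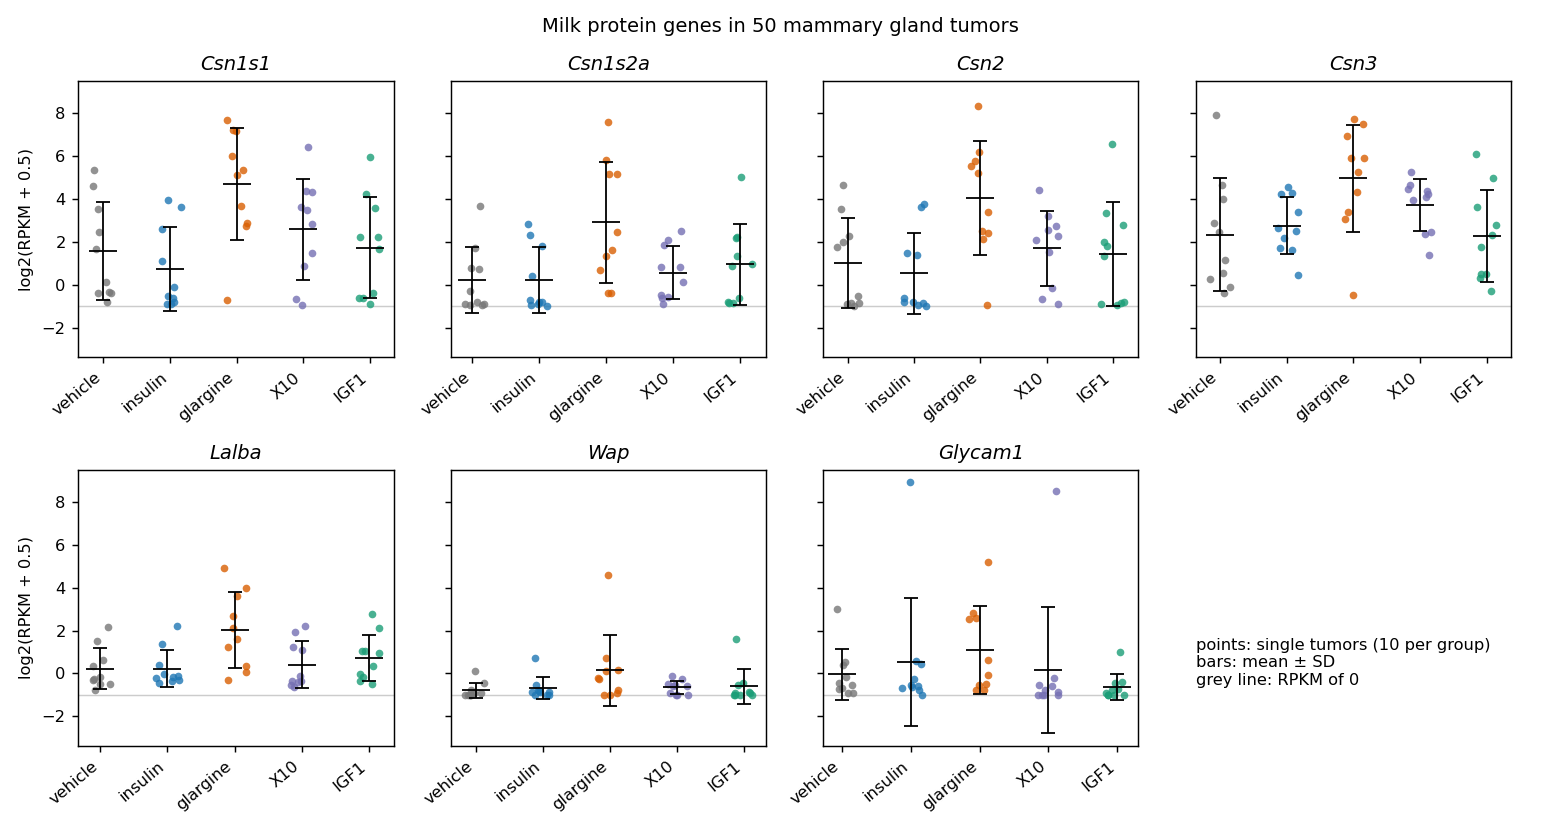
Level of each milk protein gene as log2(RPKM + 0.5) (y axis, the same range in every panel) in the 5 treatment groups (x axis), with a point for each of the 10 tumors of a group and bars for the mean ± SD. The glargine group has the highest mean in all 7 panels, its caseins span from near 0 to over 100 RPKM, and single tumors of the insulin and X10 groups reach 480.1 and 366.9 RPKM of Glycam1.

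The spread between tumors was among the largest of any gene. On the log2(RPKM + 0.5) scale the SD over the 50 tumors was 2.61 for Csn1s1, 2.44 for Csn2, 2.21 for Csn3, 2.16 for Glycam1 and 2.07 for Csn1s2a, which placed them between the 99.47th and the 99.83rd percentile of the 16733 genes with a mean of at least 0.5 RPKM. The SD was 1.34 for Lalba and 0.91 for Wap, against a median of 0.42 over these genes. All 7 members passed this filter on the mean, but Wap passed it through glargine_78 alone, since its mean without that tumor was 0.212 RPKM. Wap is therefore left out where members with a difference are counted below, and its differences are given as a description.

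Among the caseins, the vehicle tumors were mostly low. Csn1s1 ranged from 0.071 RPKM over a median of 1.67 to 39.8 in the vehicle group and from 0.035 over 0.304 to 15.0 in the insulin group. In glargine tumors the lowest, median and highest Csn1s1 levels were 0.113, 37.4 and 206 RPKM, in X10 tumors 0.021, 8.58 and 85.8, and in IGF1 tumors 0.035, 3.41 and 60.8. The groups overlapped, and 7 of 10 glargine tumors were at or above 10 RPKM, against 3 vehicle, 2 insulin, 5 X10 and 3 IGF1 tumors.

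Csn2 was likewise highest in glargine tumors. Its lowest, median and highest levels were 0, 1.55 and 24.8 RPKM in vehicle tumors, 0, 0.116 and 12.9 in insulin tumors, 0.018, 23.4 and 316 in glargine tumors, 0.036, 4.03 and 20.5 in X10 tumors, and 0.018, 2.54 and 92.6 in IGF1 tumors. The group means on the log2 scale fell from glargine (4.05 ± 2.66, SD, n = 10) over X10 (1.70 ± 1.75), IGF1 (1.44 ± 2.43) and vehicle (1.02 ± 2.10) to insulin (0.52 ± 1.91). From X10 down to insulin, neighbours in this order lay within 0.27 to 0.49 of each other, well inside the SD of each group.

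Csn1s2a had a lower median than Csn1s1 and Csn2 in every group. Its medians were 0.201 RPKM in vehicle, 0.0925 in insulin, 3.75 in glargine, 0.919 in X10 and 1.39 in IGF1 tumors, and its highest levels were 12.2, 6.57, 192, 5.20 and 32.5 RPKM in the same order. The only tumors at or above 10 RPKM were 4 glargine tumors, Untreated_182 and IGF1_145.

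Csn3 was the most widely expressed member, with 40 of 50 tumors at or above 1 RPKM. Its lowest, median and highest levels were 0.272, 3.36 and 241 RPKM in vehicle tumors, 0.874, 5.46 and 23.1 in insulin tumors, 0.229, 48.3 and 213 in glargine tumors, 2.16, 17.5 and 37.6 in X10 tumors, and 0.305, 3.73 and 68.7 in IGF1 tumors. In the X10 group all 10 tumors were above 1 RPKM, with an SD of 1.22 on the log2 scale. The insulin group was close to this, with 9 of 10 tumors at or above 1 RPKM and an SD of 1.34. The SD was 2.14 in the IGF1, 2.49 in the glargine and 2.62 in the vehicle group. The highest Csn3 level of the series was not in a glargine tumor but in Untreated_182.

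Lalba reached 1 RPKM in 21 tumors. Its lowest, median and highest levels were 0.082, 0.362 and 3.94 RPKM in vehicle, 0.232, 0.396 and 4.07 in insulin, 0.314, 3.18 and 29.8 in glargine, 0.136, 0.348 and 4.19 in X10, and 0.218, 1.09 and 6.41 in IGF1 tumors. The 3 tumors at or above 10 RPKM were all glargine tumors, while the glargine minimum lay below the median of every other group.

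Wap, whose promoter drives the Cre, was close to silent. It had no read in 17 tumors and reached 1 RPKM in 4, namely glargine_78 (23.5 RPKM, 344 reads), IGF1_145 (2.56), insulin_14 (1.13) and a second glargine tumor. The group medians were 0.018 RPKM in vehicle, 0.054 in insulin, 0.345 in glargine, 0.163 in X10 and 0.036 in IGF1 tumors. More than 3 reads were found in 6 glargine tumors, 3 X10, 3 IGF1, 2 vehicle and 2 insulin tumors. glargine_78 held 69.3% of all Wap signal in the series.

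Glycam1 followed another pattern. Its medians were 0.216 RPKM in vehicle, 0.176 in insulin, 0.752 in glargine, 0.064 in X10 and 0.056 in IGF1 tumors. A pair of tumors stood far above all others, insulin_8 at 480 RPKM (15567 reads) and X10_105 at 367 RPKM (11201 reads). The next highest tumors were glargine_78 at 36.0 RPKM and Untreated_197 at 7.44 RPKM, and the highest IGF1 tumor had 1.52 RPKM.

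**Figure D2:**
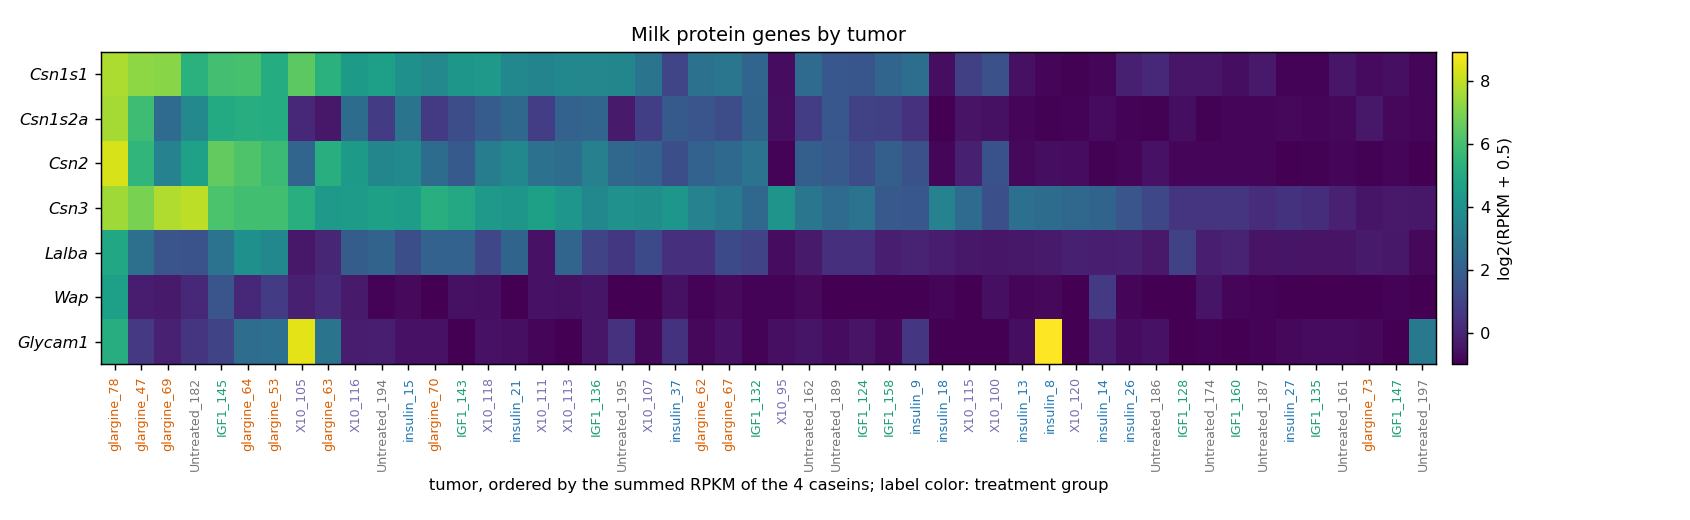
Level of the 7 genes (rows, color scale in log2(RPKM + 0.5)) in each of the 50 tumors (columns), ordered from left to right by the summed RPKM of the 4 caseins, with label colors for the treatment groups. The caseins and Lalba fade together from left to right, Wap is bright in glargine_78 at the left end, and the brightest Glycam1 cells, X10_105 and insulin_8, do not follow the order.

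The summed level of the 4 caseins gave the rank of each tumor as a milk protein producer. Its medians were 7.96 RPKM in vehicle, 8.13 in insulin, 140 in glargine, 32.8 in X10 and 12.2 in IGF1 tumors. glargine_78 was highest at 893 RPKM, followed by glargine_47 (369.9), glargine_69 (369.2), Untreated_182 (318) and IGF1_145 (255). Glargine tumors made up 6 of the 10 highest and 7 of the 20 highest. The group was not uniform, since glargine_73 was among the 3 lowest of the series at 0.632 RPKM. Even in glargine_78 the caseins made up 0.132% of all RPKM.

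The mixture of caseins differed between tumors. Csn2 was 1.77 times the Csn3 level in glargine_78, 1.35 times in IGF1_145 and 1.21 times in glargine_64, but 0.0473 times in glargine_69 and 0.103 times in Untreated_182. In glargine_69 Csn3 stood at 213 RPKM and Csn1s1 at 141 while Csn2 was 10.1 and Csn1s2a 4.96. In X10_95 Csn3 was 16.8 RPKM with Csn2 at 0.036 and Csn1s1 at 0.127. glargine_63 had 40.2 RPKM of Csn1s1 and 36.6 of Csn2 with 0.272 of Csn1s2a and 0.559 of Lalba. Expression of Csn3 without the other caseins was thus seen in some tumors, while Csn1s2a and Lalba were low in others that had high Csn1s1 and Csn2.

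To evaluate the treatments, each group was compared with vehicle by limma on log2(RPKM + 0.5) over the 16733 genes, with Benjamini-Hochberg adjustment over all of them and a threshold of 0.05. After chronic glargine none of the 7 members passed this threshold, and neither did any other gene (0%), although the 6 members other than Wap all had higher mean levels than in vehicle tumors (54.1% of all genes) and 5 of these 6 had an unadjusted p below 0.05, against 6.23% of all genes. The caseins and Lalba varied together across tumors (r from 0.730 to 0.936). Their p-values are therefore not independent of each other, here and in all counts of members below. The difference of Csn1s1 was 3.13 on the log2 scale (SE 1.00, 95% interval 1.11 to 5.15, limma p = 0.00305, adjusted p = 0.783). It was 3.03 for Csn2 (SE 0.95, p = 0.00243), 2.69 for Csn1s2a (SE 0.81, p = 0.00181), 2.62 for Csn3 (SE 0.88, p = 0.00473) and 1.81 for Lalba (SE 0.52, p = 0.00108), with adjusted limma p-values between 0.754 and 0.789. For Glycam1 it was 1.15 (SE 0.94, limma p = 0.226, adjusted p = 0.856), and it was 1.15 (SE 0.50) in a fit without insulin_8 and X10_105. Because these 2 tumors of other groups were left out for their own very high Glycam1, Glycam1 values without them are given as a description, with no test. The Wap difference, given as a description, was 0.94 (SE 0.39) and fell to 0.44 without glargine_78.

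By size, Csn1s1, Csn2, Csn1s2a and Csn3 were the 4 genes with the largest glargine minus vehicle differences of the 16733, Lalba ranked 10th and Glycam1 53rd, and the median of the 6 members other than Wap was 2.65 against 0.02 over all genes. The caseins and Glycam1 also varied more between tumors than nearly all other genes. By limma p the members other than Wap ranked lower, from 24 for Lalba and 39 for Csn1s2a to 4411 for Glycam1. A permutation test of each gene on its own (two-sided, 100000 resamples of the group labels, unadjusted) gave p = 0.0129 for Csn1s1, 0.0124 for Csn2, 0.0163 for Csn1s2a, 0.0368 for Csn3, 0.0112 for Lalba and 0.152 for Glycam1. Of the 10 glargine tumors, 10 lay above the vehicle median for Csn1s2a, 9 for Csn1s1, Csn2, Csn3 and Lalba, and 6 for Glycam1. Without glargine_78, a choice made after seeing the data, the differences of the 6 members other than Wap ranged from 0.70 to 2.80, and the unadjusted limma p stayed below 0.05 for the 4 caseins and Lalba (5.84% of all genes).

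**Figure D3:**
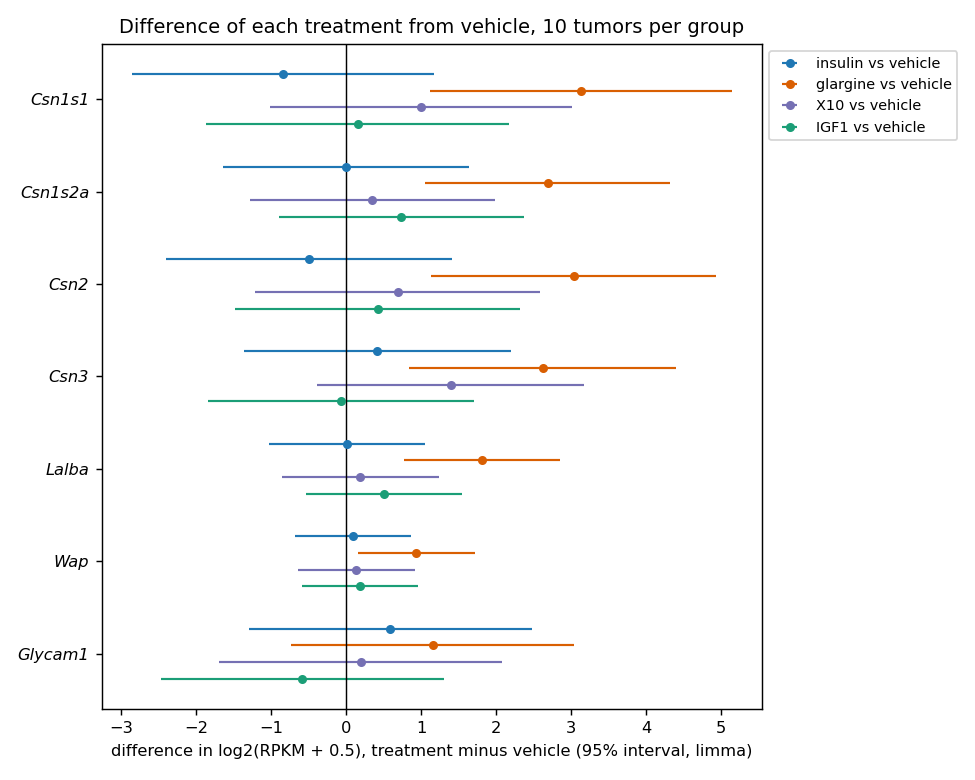
Difference in mean log2(RPKM + 0.5) between each treatment and vehicle (x axis) for the 7 genes (y axis), with 10 tumors per group and 95% intervals from limma as horizontal bars. The intervals of the glargine differences lie above 0 for the caseins and Lalba and include 0 for Glycam1. The glargine interval of Wap is drawn as a description and is not counted, because Wap entered the tested genes through glargine_78 alone. All intervals of insulin, X10 and IGF1 include 0. None of the differences passed the threshold after adjustment over all genes.

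For insulin, X10 and IGF1 no member differed from vehicle tumors by more than the test could tell from the spread between tumors. By limma, 0 of 7 members passed the adjusted threshold for insulin (0% of all genes), X10 (0.0657%) and IGF1 (0.00598%), and none had an unadjusted p below 0.05 by limma or by the permutation test (11.1%, 11% and 8.84% of all genes by limma). The insulin differences ran from -0.84 for Csn1s1 (95% interval -2.86 to 1.17) to 0.58 for Glycam1 (-1.30 to 2.47), which turned to -0.35 without insulin_8 and X10_105. With the score of the luminal keratin and junction genes as a covariate all 7 insulin differences lay above 0, from 0.23 to 1.35, so that those of Csn1s1, Csn2 and Csn1s2a turned sign. The X10 differences of the 6 members other than Wap were all above 0 (44.4% of all genes), although that of Glycam1 turned from 0.19 to -0.74 without these 2 tumors. The largest were 1.39 for Csn3 (-0.38 to 3.17) and 1.00 for Csn1s1 (-1.02 to 3.01). The Csn3 difference was 1.69 with the luminal score as a covariate. It was 1.86 without Untreated_174 and Untreated_182, a fit added after seeing the data. In both fits its unadjusted limma p was below 0.05 and it was not called. No share over all genes was computed for these 2 fits. The IGF1 differences ran from -0.59 for Glycam1 (-2.47 to 1.30) to 0.73 for Csn1s2a (-0.90 to 2.37). The intervals span several log2 units, so that sizeable changes in either direction are compatible with these values.

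The study grouped X10 and IGF1 as the ligands with high affinity for the IGF1 receptor. Pooled against the other 30 tumors they gave lower means for all 6 members other than Wap (56.4% of all genes), the largest difference being -0.77 for Glycam1, with 0 of 7 called (0.155% of all genes), 0 with an unadjusted p below 0.05 (10.5%) and a smallest adjusted limma p of 0.730. Without insulin_8 and X10_105 the Glycam1 difference was -0.93. The sign turned for Csn1s1, Csn2 and Csn3 with the luminal keratin and junction score added to the model, and for Csn1s1 and Csn2 with the adipocyte score.

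Between the ligands, 6 pairs were compared, and the pairs share tumors, so that their results are not independent of each other or of the comparisons with vehicle. Mean levels in glargine tumors were above those in insulin tumors for all 6 members other than Wap (48.3% of all genes). The 7 tested genes of the adipocyte list were all higher in glargine too, with a median difference of 1.36, 5 unadjusted limma p-values below 0.05 and 0 called. The fit with their score as a covariate is given with the other cell types. Csn1s1 was higher in glargine by 3.97 on the log2 scale (SE 1.00, limma p = 0.000246, adjusted over all genes 0.990, adjusted over the 6 pairs for this gene 0.00147), the smallest limma p and the largest difference of all 16733 genes in that comparison. Csn2 was higher by 3.53 (SE 0.95), Csn1s2a by 2.69 (SE 0.81), Csn3 by 2.20 (SE 0.88) and Lalba by 1.799 (SE 0.52). For Glycam1 the difference was 0.57 (SE 0.94), and 1.496 (SE 0.51) without insulin_8 and X10_105. In all, 5 of these 6 members had an unadjusted limma p below 0.05 (3.96% of all genes) and 0 of 7 were called over all genes (0%). The Wap difference was 0.84 (SE 0.39), and 0.35 without glargine_78.

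The X10 tumors had lower mean levels than glargine tumors for all 6 members other than Wap (57.1% of all genes). Lalba differed by -1.62 (SE 0.52, limma p = 0.00307, adjusted p = 0.0962), Csn1s2a by -2.34 (SE 0.81, adjusted p = 0.138), Csn2 by -2.35 (SE 0.95) and Csn1s1 by -2.13 (SE 1.00). These 4 had an unadjusted limma p below 0.05 (11.6% of all genes) and 0 of 7 were called, in the comparison with the largest share of genes called (1.78%). By the unadjusted permutation test Csn1s1 was at p = 0.0717, and Lalba, Csn1s2a and Csn2 were below 0.05. Without glargine_78 an unadjusted limma p below 0.05 was left for 2 of the 4, Csn1s2a at -1.82 and Lalba at -1.30 (11.6% of all genes). The Wap difference was -0.80 (SE 0.39), and -0.31 without glargine_78. For Glycam1 the difference was -0.96, and -1.89 without insulin_8 and X10_105. The 7 tested adipocyte genes were all lower in X10 than in glargine tumors (median difference -0.85, 1 unadjusted limma p below 0.05, 0 called). IGF1 tumors were lower than glargine tumors for these 6 members as well (49.5% of all genes). The differences were -2.98 for Csn1s1 (SE 1.00), -2.69 for Csn3 (SE 0.88), -2.62 for Csn2 (SE 0.95), -1.96 for Csn1s2a (SE 0.81), -1.74 for Glycam1 (SE 0.94) and -1.30 for Lalba (SE 0.52). The caseins and Lalba gave 5 unadjusted limma p-values below 0.05 (6.98% of all genes), and 0 were called (0%). Without glargine_78 there were 3, those of Csn1s1, Csn2 and Csn3 (7.25% of all genes). By the unadjusted permutation test over all 10 tumors of each group, Csn1s2a (p = 0.085) and Lalba (p = 0.0632) stayed above 0.05. The permutation p of Glycam1 was 0.0148 and its limma p 0.0705. All 7 tested adipocyte genes were lower in IGF1 tumors here too (median difference -1.61, 5 unadjusted limma p-values below 0.05, 0 called), and with their score as a covariate the difference of Csn1s1 was -1.71 (limma p = 0.0731) and 1 member, Csn3, had an unadjusted limma p below 0.05.

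The remaining pairs gave no unadjusted limma p below 0.05 for any member, against 11.3% of all genes for X10 and insulin, 7.3% for IGF1 and insulin and 11.7% for IGF1 and X10. In X10 against insulin the differences ran from -0.39 for Glycam1 to 1.84 for Csn1s1 (95% interval -0.18 to 3.86), with 0 called (0.102% of all genes). In IGF1 against insulin 0 were called (0.00598%), and in IGF1 against X10 0 were called (0%), the largest difference there being -1.47 for Csn3 (-3.24 to 0.31). A test of any difference among the 5 groups called 0 members (0.102% of all genes), with unadjusted limma p-values below 0.05 for the 4 caseins and Lalba (13.1% of all genes) and the smallest adjusted p at 0.186 for Csn1s1.

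The tumors are pieces of tissue, in which more secretory cells and more milk RNA per cell cannot be told apart. Levels of other cell types were therefore set beside the members. The adipocyte list (8 genes such as Adipoq, Lep and Fabp4) had a summed median of 209 RPKM in glargine tumors, 63.03 in vehicle, 43.9 in insulin, 76.8 in X10 and 61.1 in IGF1 tumors, with ranges of 22.0 to 644 in glargine and 18.9 to 317 in vehicle tumors. Its 7 tested genes were all higher in glargine than in vehicle tumors, with a median difference of 0.90 on the log2 scale, 2 unadjusted limma p-values below 0.05 and 0 called. With the adipocyte score as a covariate, added after seeing the data, the glargine minus vehicle differences of the 6 members other than Wap ranged from 0.91 to 2.38 and 5 had an unadjusted limma p below 0.05 (5.4% of all genes in the same fit). With the same covariate the glargine minus insulin differences ranged from 0.21 to 2.84 with 4 such p-values (6.47% of all genes), where Csn3 was at 1.43 (limma p = 0.104). Such p-values were left for 2 members in X10 against glargine (11.6% of all genes), for 1 in IGF1 against glargine (6.23%) and for 4 in the test among the 5 groups (13.5%). The vessel and lymph node list had a median difference of 0.01, with 4 of 7 tested genes above 0. For the skeletal muscle list it was 0.79, with 7 of 8 above 0, and for the leukocyte list 0.24, with 5 of 8 above 0. For the basal list it was 0.03, with 4 of 8 above 0. None of their genes was called.

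The luminal keratin and junction list had a median glargine minus vehicle difference of -0.40, with 3 of 13 genes above 0 and 0 called. In glargine against insulin its median difference was 0.96, with 11 of 13 above 0, 2 unadjusted limma p-values below 0.05 and 0 called, and in IGF1 against glargine it was -1.59, with 0 of 13 above 0, 5 such p-values and 0 called. In X10 against glargine, where the caseins were lower in X10, its median difference was 0.07, with 7 of 13 above 0, 0 such p-values and 0 called. The direction of the luminal list was thus opposite to that of the caseins in glargine against vehicle. It was the same in glargine against insulin and in IGF1 against glargine, and mixed in X10 against glargine. With its score as a covariate, 5 of the 6 members other than Wap had an unadjusted limma p below 0.05 in glargine against vehicle (differences 1.23 to 3.36, with 6.19% of all genes in the same fit). The count was 4 in glargine against insulin (0.26 to 3.13, with 5.58% of all genes), 4 in X10 against glargine (12.5%) and 0 in IGF1 against glargine (-1.70 to -1.03, with 8.4%). In Untreated_174 the summed luminal list was the highest of the series at 9011 RPKM, while its 7 milk protein genes summed to 1.95 RPKM, rank 43 of 50. Untreated_182 combined high levels of both, with a luminal sum of 2037 RPKM and a milk protein sum of 322 RPKM. glargine_78, the highest milk protein tumor, had a luminal sum of 507 RPKM, rank 15.

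Other genes of milk and secretion were taken as a list of 24, of which 21 were tested. In glargine against vehicle, 16 of the 21 were above 0 with a median difference of 0.25, and 0 were called. The 4 with the highest mean levels were Spp1 (osteopontin, also made by macrophages) at 1274 RPKM, Plin2 (a lipid droplet protein) at 392, Slc2a1 (a glucose transporter) at 153 and Mfge8 (a milk fat globule protein) at 123. All of these were expressed in every tumor. glargine_78, at the top for the caseins, ranked 37th for Spp1, 36th for Plin2, 43rd for Slc2a1 and 14th for Mfge8. Btn1a1 (butyrophilin of the milk fat globule) at 9.80 RPKM and Muc15 at 11.5 RPKM were in contrast highest in glargine_78. The neighbouring genes within the casein cluster region (12 found) stayed near 0, with a summed median of 0.341 RPKM over all tumors, except in insulin_13 and insulin_14. insulin_14 had 95.2 RPKM of the cluster neighbour Smr3a. insulin_13 had 16577 RPKM of Smr3a, a salivary-type secretory gene, and 119 RPKM of Odam, yet its milk protein genes summed to 6.52 RPKM. Btn1a1, Smr3a and Odam were named after their values were seen.

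Of the 23 listed lactation regulators 20 were tested, and in glargine against vehicle 13 were above 0 with a median difference of 0.12 and 0 called. The 4 most abundant were Cav1 (caveolin, a brake on prolactin signaling) at a mean of 3774 RPKM, Socs3 (a feedback inhibitor of STAT signaling) at 349, Cebpb at 81.0 and Nfic at 67.7 RPKM. Prlr had a mean of 3.17 RPKM (0.129 to 16.4) and Elf5 of 5.32 RPKM (0.052 to 43.8). Stat5a had a narrow range from 3.27 to 10.8 RPKM and Stat5b from 4.48 to 13.8 RPKM. The abundance of Elf5 and Prlr thus varied over orders of magnitude between tumors, in contrast to the STAT5 genes. The highest Elf5 level was in Untreated_182, which also had the highest Csn3.

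Across the 50 tumors the caseins and Lalba varied together. Pearson's r on the log2 scale between pairs of the 4 caseins was 0.769 to 0.936 and Spearman's rho 0.743 to 0.928 (6 of 6 pairs with an adjusted p below 0.05 over 21 pairs, permutation test, two-sided, 100000 resamples). With values centred within treatment groups r was 0.755 to 0.917, so the relation held within the treatments. For Csn1s1 and Csn2 r was 0.936 and rho 0.928, each with p = 1e-05, the smallest that these permutations can give (adjusted 1.75e-05 and 1.91e-05), and r was 0.927 without the 2 tumors farthest from the median. Lalba joined them, with r from 0.730 to 0.886. Wap was less closely tied to the caseins and Lalba, with r from 0.532 to 0.673 (0.488 to 0.593 without glargine_78) and rho from 0.410 to 0.627.

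Glycam1 was the least like the others. Its r with the other 6 was 0.185 to 0.442 and its rho 0.315 to 0.505. Of its 5 pairs without Wap, 3 had an adjusted permutation p below 0.05 by r and 5 by rho. With values centred within treatment groups r in these 5 pairs was 0.126 to 0.287, with adjusted permutation p-values from 0.0501 to 0.389. Their r without glargine_78 was 0.042 to 0.244. Without insulin_8 and X10_105 the smallest r of any pair was 0.434. Of the 15 pairs without Wap, 13 passed by Pearson's r and 15 by Spearman's rho, every one of them positive.

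**Figure D4:**
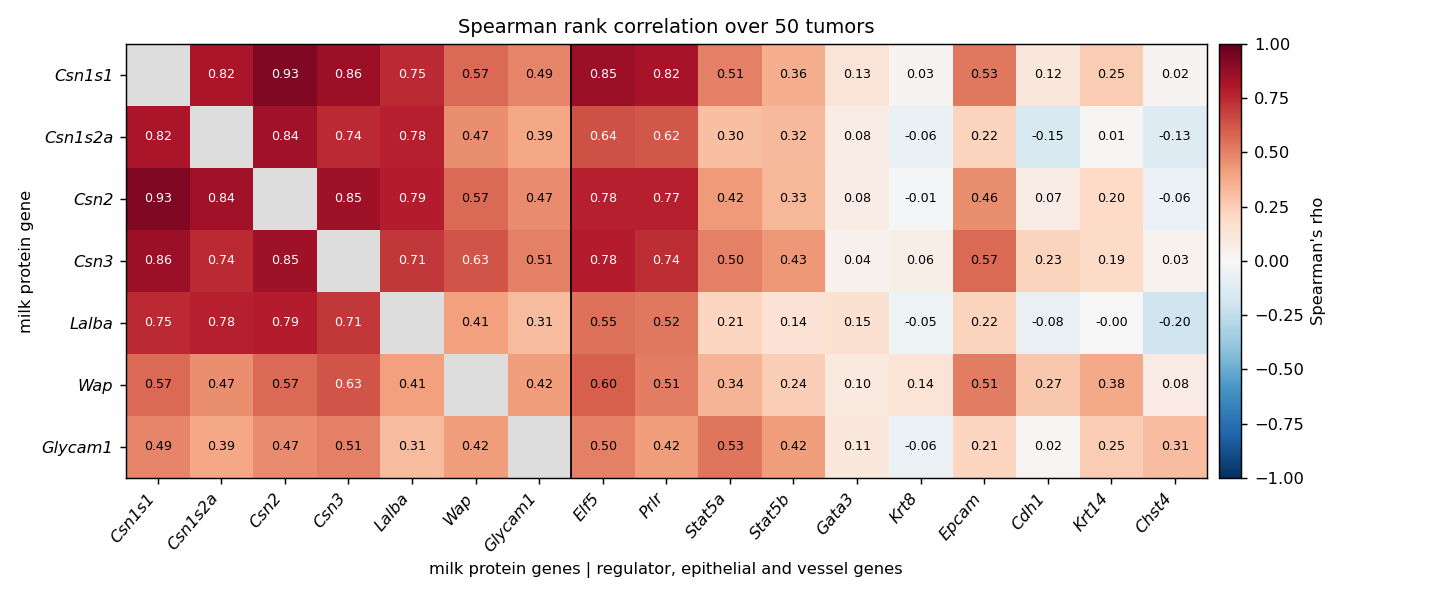
Spearman's rho over the 50 tumors between each milk protein gene (rows) and the other milk protein genes (left block) or 10 regulator, epithelial and vessel genes (right block), with color from -1 to 1 and the value in each cell. The 4 caseins and Lalba form the darkest block, with rho of at least 0.706, and Elf5 and Prlr are the darkest columns of the right block.

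To place the members beside their regulators, 70 relations with 10 further genes were computed, and 24 passed at an adjusted permutation p below 0.05, all positive (22 of 60 without Wap). Elf5 had r of 0.809 with Csn1s1 (rho 0.852), 0.768 with Csn3 (rho 0.783), 0.747 with Csn2 (rho 0.778), 0.625 with Csn1s2a (rho 0.636) and 0.561 with Lalba (rho 0.553), each with an adjusted permutation p of 0.000408 or less, and with Wap it was 0.511 (rho 0.596). For Csn1s1 and Elf5 r was 0.779 without the 2 farthest tumors and 0.784 within treatment groups. Prlr had r of 0.770 with Csn1s1 (rho 0.821), 0.736 with Csn2 (rho 0.774) and 0.688 with Csn3 (rho 0.736).

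The STAT5 genes were less closely tied. Stat5a had r of 0.486 with Csn3, 0.472 with Csn1s1 and 0.385 with Csn2, and Stat5b of 0.432 with Csn3 and 0.372 with Csn1s1, all with adjusted permutation p-values below 0.05. Of the epithelial genes, Epcam had r of 0.489 with Csn3, 0.455 with Csn1s1 and 0.354 with Csn2. Krt8 (a luminal keratin), Cdh1 (E-cadherin), Gata3 (a luminal lineage factor) and Krt14 (a basal keratin) had no relation with any member that passed by Pearson's r.

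The genes whose levels ranked most like each member across the 50 tumors overlapped between members. Muc15, a mucin of the milk fat globule membrane, and Atp6v1b1, a subunit of the vacuolar proton pump, were the 2 nearest genes for each of the 4 caseins and for Lalba, with rho of 0.911 and 0.904 for Csn1s1 and 0.841 and 0.866 for Csn2. The next nearest for Csn1s1 were Col9a2 (rho 0.853), Elf5 and Prlr, and for Csn3 Slc28a3 (0.792), Elf5 and Folr1 (0.779), a folate receptor. Csn1s2a had Fcgbp (0.683), Col9a2 (0.656) and Col9a1 (0.653), and Lalba had Fcgbp (0.619), Lep (0.595) and Slc28a3 (0.578). For Wap the nearest were Slc28a3 (0.705), Wfdc18 (0.658), Muc4 (0.649), Tfap2c (0.646) and Ltf (lactoferrin, 0.606). For Glycam1 they were Clca1 (0.609), Cldn2 (0.591), Ggt1 (0.585), Shisa2 (0.584) and Cyp26a1 (0.566), none of which was among the 5 nearest of another member. Of the 16726 other genes tested, 0.879% had a rho above 0.5 with Csn1s1, 0.801% with Csn3, 0.628% with Csn2, 0.389% with Wap, 0.269% with Glycam1, 0.203% with Lalba and 0.179% with Csn1s2a. The adipocyte genes ranked with Csn2 too, with a median rho of 0.547 (7 of 7 above 0) against 0.436 for the luminal list and 0.009 over all genes. Their median rho with Wap was 0.057.

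Glycam1 was set against the genes of its second known source. Chst4, the sulfotransferase of high endothelial venules, had r of 0.831 with Glycam1 over the 50 tumors (permutation p = 5e-05, adjusted p = 0.000318 over 70 relations) but a rho of 0.310 (adjusted p = 0.0671). Without insulin_8 and X10_105, the 2 tumors farthest from the median, r was 0.336, so the relation rests on these tumors. insulin_8 had the highest levels of the series for Chst4 (4.16 RPKM), Fut7 (2.36), Madcam1 (1.52) and Ccl21a (129), and X10_105 the second highest for each (2.84, 1.22, 1.17 and 123). Fut7, Madcam1 and Ccl21a were named after their values were seen. Ccl21a has near-identical copies in the mouse genome, so its counts are uncertain.

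The summed list of 11 vessel and lymph node genes was 360 RPKM in X10_105 and 284 in insulin_8, against a median of 10.1 over all tumors. In glargine_78, where Glycam1 was 36.0 RPKM, Chst4 was at 0 and the list summed to 8.53 RPKM, rank 28, with the caseins at their highest. In insulin_8 Csn1s1 was at 0.042 RPKM and Csn2 at 0.152, but Csn3 was at 5.20 RPKM (rank 30), near the insulin median of 5.46. Its summed caseins were 5.42 RPKM, rank 36. In Untreated_197 Glycam1 was 7.44 RPKM with 0 reads of Csn2, Chst4 at 0.350 RPKM (rank 3) and the list at 9.60 RPKM. X10_105 had high venule genes with 85.8 RPKM of Csn1s1 and 37.6 of Csn3, but 4.26 of Csn2 and 0.576 of Csn1s2a. In glargine_78 Madcam1 was 0.211 RPKM (rank 6) and Fut7 0.497 (rank 13), so the venule genes did not all stand at the low end there.

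**Figure D5:**
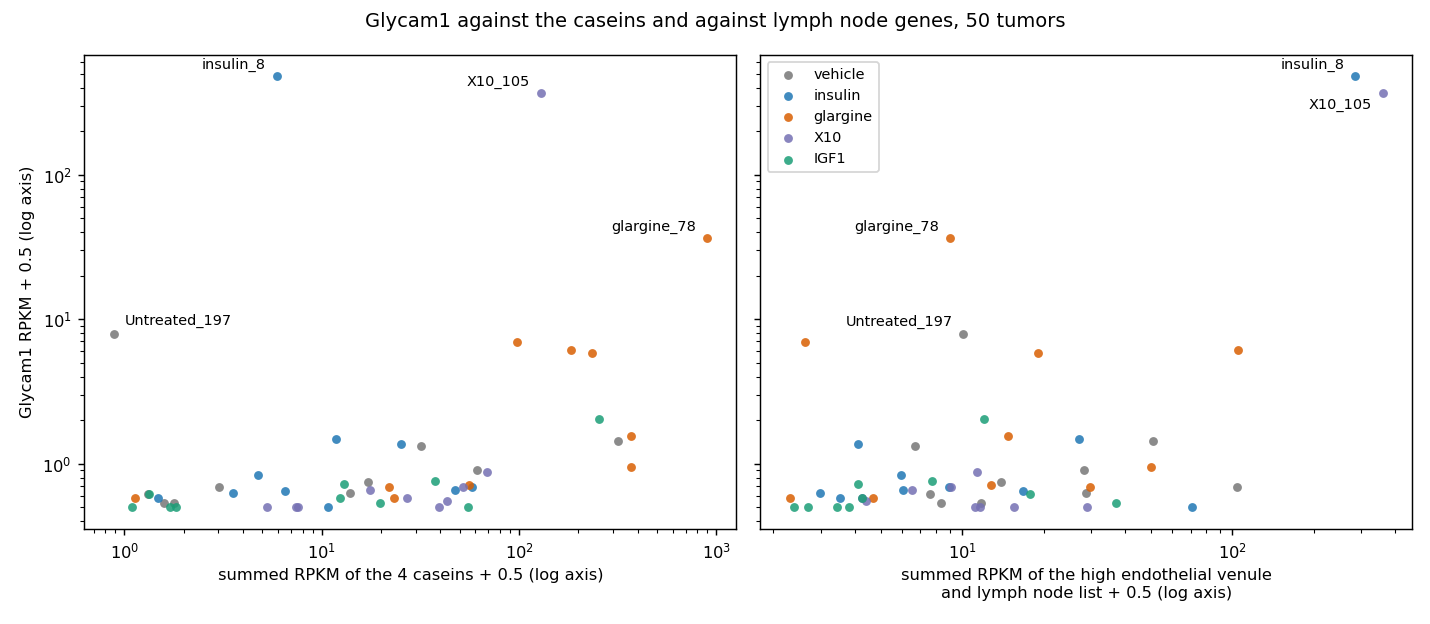
Glycam1 level (y axis, RPKM + 0.5, log axis) against the summed level of the 4 caseins (left) and of 11 high endothelial venule and lymph node genes (right) in each of the 50 tumors (points, colored by treatment; both x axes are RPKM + 0.5 on a log scale). insulin_8 and X10_105 stand at the upper right of the lymph node panel, whereas glargine_78 is high for Glycam1 and the caseins with a lymph node sum of 8.53 RPKM.

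X10_105 was high in several lists at once. It ranked 1st for the basal list (4624 RPKM), 2nd for the adipocyte list (543 RPKM) and 3rd for the skeletal muscle list (2614 RPKM), and had 85.8 RPKM of Csn1s1, the highest outside the glargine group. The part of admixed tissue in its milk protein values was not tested.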

How the data were processed

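RNA-seq was made from 50 mammary gland tumors, 10 per treatment group, with poly-A selection and the Ion Total RNA-Seq kit. Per the labels and the study's methods, the authors aligned reads to the mouse genome (GRCm38) with TopHat2 (version 2.0.10) and Bowtie2 and counted them per gene with HTSeq (version 0.6.1). DESeq2 (version 1.2.10) is named in the submitters' processing notes, and its use was not repeated because the deposited values are not counts. The deposited table holds RPKM for 37701 genes, and RPKM values carry no error of their own. RPKM values were whole multiples of a step per gene, from which library sizes and read numbers were recovered (96.58% of low values came out whole in the tumor with the smallest share). Groups were taken from the sample titles, where "Untreated" was read as vehicle and a title spelled IFG1 as IGF1.

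Values were analysed as log2(RPKM + 0.5), which understates changes of low genes, for genes with a mean of at least 0.5 RPKM (16733 genes). Groups were compared with limma 3.58.1 in R 4.3.3, in a single model of all 50 tumors with an intensity trend, with Benjamini-Hochberg adjustment over all tested genes. Permutation tests and correlations used scipy 1.17.1 with numpy 2.4.6 and pandas 2.3.3 (Python 3.11.15), and figures matplotlib 3.10.9. The model was tested on simulated data. Gene positions came from GENCODE annotation of GRCm38 and promoter sequences from RefSeq. The alternatives were other pseudocounts, filters, normalizations and variance models, covariates, and tumors left out. Each list held genes of a function or cell type known from textbooks (123 of 125 symbols were found). Named were all 7 members, from the lists of milk genes and regulators the 4 with the highest mean and any called, 10 partner genes for correlation, and the 5 genes most like each member by Spearman's rho. Btn1a1, Smr3a, Odam, Fut7, Madcam1 and Ccl21a fall outside this rule and were chosen after their values were seen. The members and lists were chosen with earlier results of these data known. The p-values measure the spread between tumors of different mice.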

Additional observations from a re-analysis of the deposited data

Results flagged for a closer look

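In each member and group of 10 tumors (35 sets, on the log2 scale) it was asked whether the highest or lowest tumor lay apart from the rest by a gap above Dixon's critical share of the range of the group, which chance gives in about 1 in 20 groups. This was so for 9 of the sets, each time for the highest tumor. insulin_8 had 480.08 RPKM of Glycam1 against 0.976 in the next insulin tumor, and X10_105 had 366.944 against 0.368. Untreated_197 had 7.44 RPKM of Glycam1 against 0.944, and IGF1_145 had 1.52 against 0.256. Wap and Glycam1 had at most 3 reads in many tumors, whose values lie near the lower end of the scale, so the rate of 1 in 20 does not hold for their sets. Wap also entered the tested genes through glargine_78 alone, and its values are given as a description. glargine_78 had 23.503 RPKM of Wap against 1.162 in the next glargine tumor, IGF1_145 had 2.559 against 0.236, insulin_14 had 1.125 against 0.181 and Untreated_182 had 0.581 against 0.236. IGF1_145 also stood apart for Csn1s2a, at 32.457 RPKM against 4.217. No set of Csn1s1, Csn2, Csn3 or Lalba had such a tumor.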

How the results depend on the processing

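Limma called 0 members in every comparison and setting except the one named below, so the counts of calls say little about stability. Of 1126 single differences under up to 15 alternative limma settings 28 turned sign. The permutation test, which is not adjusted over genes, gave 6 members for glargine against vehicle, 5 for any difference among the groups and 12 of 42 for the 6 ligand pairs, where limma called 0. At the same unadjusted threshold limma gave 6, 5 and 16 of 42, and no share over all genes was computed for the permutation test. Leaving out Wap, which rests on glargine_78, the counts were 5, 5 and 12 of 36 by the permutation test and 5, 5 and 14 of 36 by limma. Leaving out insulin_8 and X10_105, a setting added after seeing the data, gave 1 call among the ligand pairs, Glycam1 in X10 against glargine at -1.89, but these tumors were picked by their Glycam1 level and the call is no test. With the luminal score as a covariate, Csn1s1, Csn2 and Csn3 turned to 0.30, 0.10 and 0.079 in X10 and IGF1 against the other tumors, Csn1s1, Csn2 and Csn1s2a to 0.23, 0.36 and 0.39 in insulin against vehicle, Csn1s1 and Csn2 to 0.32 and 0.66 in IGF1 against X10, Csn3 to 1.24 in IGF1 against vehicle and Wap to -0.13 in X10 against insulin. With the adipocyte score, added later, Csn1s1 and Csn2 turned to 0.19 and 0.019 in X10 and IGF1 against the other tumors, Csn1s2a to 0.23 in insulin against vehicle, Csn2 to 0.17 in IGF1 against X10, Csn3 to 0.26 in IGF1 against vehicle and Lalba to -0.024 in X10 against insulin. Without insulin_8 and X10_105, Glycam1 turned to -0.35 in insulin and -0.74 in X10 against vehicle and to 0.15 in IGF1 against X10, Csn1s2a to 0.13 in insulin against vehicle and Wap to -0.029 in X10 against insulin. Without Untreated_174 and Untreated_182, Csn1s2a turned to 0.28 in insulin and Csn3 to 0.40 in IGF1 against vehicle. A pseudocount of 1 turned Csn1s2a to 0.0060 and Lalba to -0.0040 in insulin against vehicle, a pseudocount of 0.1 turned Glycam1 to -0.31 in X10 against vehicle and Wap to -0.13 in IGF1 against X10, and quantile normalization turned Lalba to -0.093 in insulin against vehicle. The causes were not tested. With a mean of at least 5 RPKM required, Wap and Lalba could not be fitted. Pairs of members that passed numbered 15 of 21 without glargine_78 and 16 with values centred within groups. With values centred, no pair of Glycam1 with a casein or Lalba passed. Levels at or below 3 reads, which held for Wap in 34 tumors and Glycam1 in 22, limit what these comparisons can show. No paired analysis was possible because the mouse numbers of the groups do not coincide.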
